A study of Mus musculus with 18 samples.

Results

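The callus of young mice was compared between day 5 and day 3 after a femoral fracture, over every probe set of the deposited signal table. The members are the arrays whose titles name young mice on those days, 3 for day 5 and 3 for day 3, which makes 6 of the 18 arrays of the series. All 6 came from female mice of 6 weeks with a fractured femur, whose callus, the repair tissue around the break, was dissected and its total RNA hybridised to Affymetrix Mouse Genome 430 2.0 arrays. The other 12 arrays are young callus on day 1 and the callus of retired breeders of 8 months on days 1, 3 and 5, with 3 arrays in each group. No unfractured bone was analysed here, so each difference is between stages of repair. The strain is given as BALB/c in one label and as c57BI6 in the design text, and the labels do not say whether an array held 1 mouse or a pool. The p-values therefore measure the spread between samples. That spread, and each standard error, was pooled over the 6 groups of the 18 arrays in 1 fit. Callus is a mixture of cells, so fewer cells of a type and less RNA per cell cannot be told apart in any value given here.

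A fractured long bone heals in large part through a cartilage template. Blood and inflammatory cells fill the gap first, progenitors of the periosteum then multiply, and many of them become chondrocytes, whose matrix of type II, IX and XI collagen and aggrecan is later mineralised and replaced by bone. SOX9 is the transcription factor that defines the chondrocyte, and type X collagen marks the hypertrophic stage that precedes mineralisation. Osteoclasts, which form by fusion of cells of the monocyte lineage, resorb mineralised matrix with acid, cathepsin K and other proteases.

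The 15 largest called rises were mostly in genes of cartilage and fibrous connective tissue, and fewer genes fell than rose. Of 12921 genes, each represented by its brightest tested probe set, 923 were called (7.14%), of which 637 were higher on day 5 (4.93%) and 286 were lower (2.21%). Called here means an adjusted p below 0.05 in limma's moderated test with Benjamini-Hochberg adjustment, and differences are log2 differences of normalised signals, given ± the standard error of the fit, with 3 arrays on each day. The 3 arrays of day 5 lay wholly above those of day 3 for 2047 genes (15.8%) and wholly below for 1340 (10.4%). Over probe sets, 1773 of 27746 were called (6.39%), 1128 higher (4.07%) and 645 lower (2.32%). The split was 1560 higher and 1445 lower on the values as deposited, and 4167 higher and 594 lower with each array centred on its median, a scaling that moved the median difference of all probe sets from -0.003 to 0.233. The median difference of all genes was 0.02.

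The arrays of day 3 stood further apart than those of day 5, and had the lowest correlations of the 6 groups. The pooled standard errors do not show this wider spread of day 3. Correlations between arrays of a group ran from 0.81 to 0.905 on day 3 and from 0.955 to 0.972 on day 5, and day 3 replicate 1 correlated more highly with day 5 replicate 2 (0.951) than with either array of its own group. The Actb 3' to 5' signal ratio, a measure of how complete the RNA was, was 1.56, 2.52 and 2.37 on day 3 and 1.29, 1.45 and 1.58 on day 5. It was therefore high on day 3 replicates 2 and 3 and overlapped between the days through day 3 replicate 1. Among the 637 higher genes, day 3 replicate 1 was the highest of the day 3 arrays for 470 (73.8%, against 38.4% of all genes), and among the 286 lower genes it was the lowest for 209 (73.1%, against 39.4%). With the Actb ratio as a covariate 16 probe sets were called, and with only these 6 arrays in the fit 16 were called, from 1773. Of the genes described in the following paragraphs, Col9a3, Col9a2, Mfap4, Saa3, Ocstamp, Ptk7 and Mest kept their calls from the 6 arrays alone. Col9a3, Col9a1, Col9a2, Matn3, Hapln1, Cd163 and Mest kept theirs with the covariate. Leaving out 1 array at a time gave between 294 called probe sets (without day 5 replicate 1) and 5517 (without day 3 replicate 1), with 1034 without day 3 replicate 2, 373 without day 3 replicate 3, 1213 without day 5 replicate 2 and 507 without day 5 replicate 3. In all of these fits 127 genes were called higher and 13 lower.

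Genes of the cartilage matrix rose on day 5. Of 25 measured members of that list, 15 were called higher (60%, where 4.93% of all genes were) and 0 lower. The median difference was 1.71 beside 0.02 for all genes. For each later list of this comparison the shares of all genes are the same, 4.93% higher and 2.21% lower. Type II collagen is the main fibril of cartilage, and its gene Col2a1 had signals of 311, 729.7 and 46.8 on day 3 and 5273, 5267 and 7463 on day 5. Every array of day 5 lay far above every array of day 3, a difference of 4.85 ± 0.62 (adjusted p = 0.000675). Type IX collagen decorates those fibrils and is built from 3 chains, all of which rose. Col9a1 had 75.1, 322 and 75.6 on day 3 and 1955, 1484 and 2375 on day 5, a difference of 3.75 ± 0.43 (adjusted p = 0.000189). Col9a3 had 6.37, 43.1 and 8.51 on day 3 and 656, 583 and 972 on day 5, a difference of 4.56 ± 0.40 with the smallest adjusted p of the 3 chains (4.21e-05). Col9a2 had 3.92, 3.01 and 13.3 on day 3 and 121, 82.8 and 142 on day 5, and differed by 2.63 ± 0.29 (adjusted p = 0.000175). Except for Col9a3 on replicate 2, the day 3 signals of Col9a2 and Col9a3 lay below the 16 units added before taking logarithms, so their fold changes are understated.

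The proteoglycan of cartilage and the proteins that anchor it changed in the same direction. Aggrecan (Acan), which holds water in the tissue, had signals of 211, 145 and 90.0 on day 3 and 1109.6, 1343 and 2446 on day 5, without overlap between the days (3.27 ± 0.46, adjusted p = 0.00129). Hapln1, the link protein that ties aggrecan to hyaluronan, had 32.5, 166 and 54.7 on day 3 and 542, 391 and 788 on day 5 and rose by 2.65 ± 0.45 (adjusted p = 0.00387). Matn3, the gene of the adaptor matrilin 3, had 18.5, 139.6 and 40.8 on day 3 and 429, 375 and 685 on day 5 and rose by 2.83 ± 0.40 (adjusted p = 0.00148). Day 3 replicate 2 was the highest of its group for Hapln1, Matn3, Col2a1, Col9a1 and Col9a3, while Acan was highest on day 3 replicate 1. Chondromodulin (Cnmd), a cartilage protein that restrains vessel growth, had 58.0, 302 and 10.9 on day 3 and 714, 692 and 1358 on day 5, a difference of 3.32 ± 0.60 (adjusted p = 0.00552). C1qtnf3, a secreted protein first described in cartilage, lies outside the list but had the largest rise after those of Col2a1 and Col9a3, with 405, 44.6 and 316 on day 3 and 2685, 3114 and 3660.2 on day 5 and a difference of 4.08 ± 0.53 (adjusted p = 0.000737). Comp rose by 2.19 ± 0.44 and Fmod by 1.71 ± 0.42, and both are also made by tendon and other fibrous tissue. Leaving out day 3 replicate 3, day 5 replicate 1 or day 5 replicate 3 ended the calls of Comp and Fmod (adjusted p from 0.0538 to 0.102), and so did leaving out day 3 replicate 2 for Fmod (a difference of 1.04, adjusted p = 0.0608). The other genes named in this and the preceding paragraph kept theirs whichever of the 6 arrays was left out. The count of called members ran from 10 without day 3 replicate 3 to 18 without day 3 replicate 1.

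**Figure D1:**
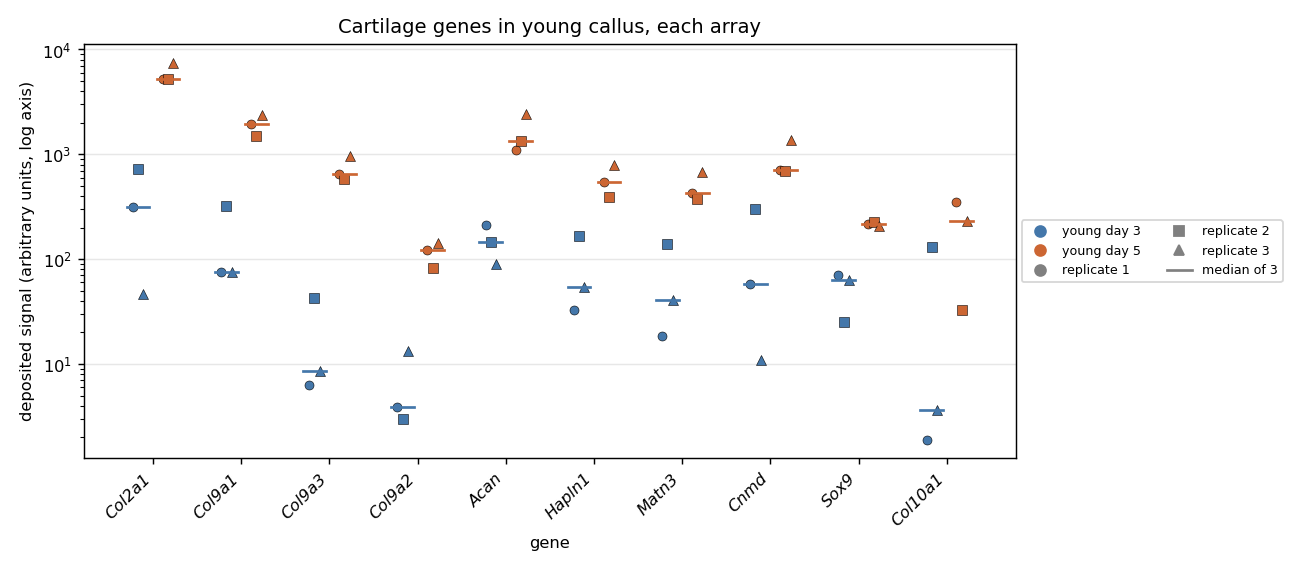
Deposited signals (log axis, arbitrary units) of 10 cartilage genes on each young array, day 3 in blue and day 5 in orange, with a bar at the median of 3 arrays and the symbol giving the replicate. The days do not overlap for 9 of the genes, while for Col10a1 day 3 replicate 2 lies above day 5 replicate 2; levels are not compared between genes.

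Bases upstream of the start sites were read for the called cartilage matrix genes because these genes moved together. The RefSeq promoter table (GRCm38.p6) held windows for 11 of the 15 genes, 13 windows in all. Col2a1, Col9a3 and Comp were among the genes without a window, so they were not searched. In each window the 250 bases before the start were searched on both strands. GGGCGG or its reverse CCGCCC, the GC box, was found in 7 of 13 windows, against 32.7% of 32851 windows of all genes. The median share of G and C was 57.6% in the 13 windows and 52.4% in all windows. TATAAA (reverse TTTATA) was found in 1 of 13, that of Col11a2 (named after the search), against 12.4%. The SOX-type words ACAAAG (reverse CTTTGT) and ACAATG (reverse CATTGT) were found in 0 of 13, against 16.5% and 10.7%, which says only that these letters are not in these windows. The windows of Acan (chr7:79052976-79053225), Col9a2 (chr4:121039316-121039565) and Matn3 (chr12:8947679-8947928), all on the plus strand, are shown as examples. All 3 genes kept their calls in every fit that left out an array and hold the GC box. Col11a1 and Matn4 also met both conditions and are not shown. Capitals mark the matches of the GC box, which are a description and not binding sites.
Acan: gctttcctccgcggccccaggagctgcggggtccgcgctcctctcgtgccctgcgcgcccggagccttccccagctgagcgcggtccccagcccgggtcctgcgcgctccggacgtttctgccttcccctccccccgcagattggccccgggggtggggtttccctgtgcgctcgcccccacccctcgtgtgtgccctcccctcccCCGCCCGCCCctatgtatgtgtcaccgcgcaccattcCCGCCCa
Col9a2: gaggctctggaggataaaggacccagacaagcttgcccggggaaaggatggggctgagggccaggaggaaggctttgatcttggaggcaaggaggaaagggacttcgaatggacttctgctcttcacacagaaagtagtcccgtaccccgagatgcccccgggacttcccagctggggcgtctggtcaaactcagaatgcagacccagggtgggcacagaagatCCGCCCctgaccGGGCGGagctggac
Matn3: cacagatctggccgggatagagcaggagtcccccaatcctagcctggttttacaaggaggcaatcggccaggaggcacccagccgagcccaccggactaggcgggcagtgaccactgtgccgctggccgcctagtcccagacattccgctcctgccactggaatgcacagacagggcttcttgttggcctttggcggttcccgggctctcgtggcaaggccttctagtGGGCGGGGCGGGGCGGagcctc
In each of the 3 windows shown the matches lie toward the 3′ end, the end nearest the start site. In the window of Col11a1, not shown, 1 match begins 110 bases before the start.

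Among the transcription factors of cartilage, 3 of 9 measured were called higher and 0 lower (median 1.00). Sox9 had signals of 71.4, 25.2 and 63.7 on day 3 and 217, 227 and 208 on day 5, lowest on day 3 replicate 2 and nearly equal on the 3 arrays of day 5. Its difference was 1.86 ± 0.35 (adjusted p = 0.00621), it was called on both of its tested probe sets, and it kept the call whichever array was left out. Wwp2, a ubiquitin ligase that hosts a cartilage microRNA, rose by 1.42 ± 0.32, with 4 of its 6 probe sets called. Runx3, which acts with Runx2 in chondrocyte maturation, rose by 1.05 ± 0.26. Sox5 and Sox6, the partners of Sox9, were not called (1.00 ± 0.41 and 0.15 ± 0.50, adjusted p = 0.153 and 0.888). Without day 3 replicate 3, day 5 replicate 1 or day 5 replicate 3 the calls of Wwp2 and Runx3 were lost (adjusted p from 0.0641 to 0.145), and without day 3 replicate 2 that of Runx3 (adjusted p = 0.0509). The loss for Wwp2 is that of its brightest probe set. Another of its probe sets rose by 2.11 ± 0.40 and kept its call whichever array was left out. The number of called members ran from 1 without day 3 replicate 3 to 4 without day 3 replicate 1.

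Hypertrophic cartilage genes gave a mixed picture, with 2 of 9 measured called higher, 1 lower and a median of 0.60. Col10a1, whose product is made by hypertrophic chondrocytes, had signals of 1.90, 131 and 3.62 on day 3 and 353, 32.6 and 229.9 on day 5. It was bright on day 5 replicates 1 and 3 and on day 3 replicate 2, and day 5 replicate 2 fell below that array, so the days overlap (2.18 ± 0.74, adjusted p = 0.0843). Panx3, a channel of prehypertrophic chondrocytes and osteoblasts, had 241, 355 and 150.0 on day 3 and 1103, 578 and 1137 on day 5 and rose by 1.78 ± 0.40 (adjusted p = 0.0159). Pth1r, the receptor of parathyroid hormone-related protein, had 499, 498 and 247 on day 3 and 1304, 733 and 1325 on day 5 and rose by 1.35 ± 0.37 (adjusted p = 0.0393). S100a1, a calcium-binding protein that muscle also makes, fell by 0.77 (adjusted p = 0.0398), on 1 of its 2 probe sets. Mmp13 and Ibsp, which late chondrocytes and osteoblasts share, were not called (0.60 ± 0.49 and 0.89 ± 0.38). All 3 calls of the list were lost without day 3 replicate 3, day 5 replicate 1 or day 5 replicate 3 (adjusted p from 0.0746 to 0.197). The list had 3 members called higher without day 3 replicate 1. S100a1 was also lost without day 3 replicate 2 (adjusted p = 0.109), on the values as deposited (adjusted p = 0.0501) and with centred arrays (adjusted p = 0.283).

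Enzymes that build sulfated glycosaminoglycans, the charged chains of aggrecan, were called higher for 7 of 25 measured genes and lower for 0 (median 0.66). Slc26a2, the sulfate transporter of chondrocytes, had signals of 202, 191 and 159.6 on day 3 and 531, 599 and 783 on day 5 and rose by 1.57 ± 0.31 (adjusted p = 0.00818). Chsy1, a chondroitin synthase, had 545, 479 and 337 on day 3 and 1458, 1035 and 1248 on day 5 and rose by 1.39 ± 0.22 (adjusted p = 0.00284). The days do not overlap for either gene, and both kept their calls whichever array was left out. Papss2, which makes the activated sulfate donor, rose by 1.17 ± 0.23, Chsy3 by 1.5 ± 0.31, Chpf by 1.48 ± 0.42 and Xylt2 by 1.40 ± 0.38. These 4 calls were lost without day 5 replicate 3 (adjusted p from 0.0517 to 0.102), and those of Chsy3, Chpf and Xylt2 also without day 3 replicate 3 or day 5 replicate 1 (adjusted p from 0.0547 to 0.167). Chpf and Xylt2 were lost as well without day 3 replicate 2 or day 5 replicate 2 (adjusted p from 0.0855 to 0.122). The number of called members ran from 3 without day 3 replicate 3 to 12 without day 3 replicate 1.

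Genes of fibrous matrix, the connective tissue around the cartilage, were called higher for 22 of 29 measured members and lower for 0 (median 1.5). Type V and type VI collagens, a regulator of fibril width and a filament around cells, moved as sets. Col5a1 had signals of 2770.2, 712 and 990.5 on day 3 and 6779, 5699 and 6489.9 on day 5 and rose by 2.55 ± 0.41 (adjusted p = 0.00292). Col6a2 had 2436, 607 and 810.1 on day 3 and 5509, 4933 and 5916 on day 5 and rose by 2.55 ± 0.38 (adjusted p = 0.00194). Day 3 replicate 1 stood above the other arrays of its day for both genes, and no array of day 3 reached day 5. Col6a1 rose by 2.24 ± 0.37, Col6a3 by 2.25 ± 0.38 and Col5a3 by 2.22 ± 0.39. Col12a1, a collagen that coats fibrils under load, had 619.8, 251 and 252 on day 3 and 2764, 1743 and 2322 on day 5 and rose by 2.65 ± 0.39 (adjusted p = 0.00182). Among the glycoproteins of this tissue, Tnn (tenascin N) had 486, 152 and 116 on day 3 and 1379, 1345 and 1986 on day 5 and rose by 2.77 ± 0.57 (adjusted p = 0.0107). Thbs2, a thrombospondin that limits vessel growth, had 782, 131 and 297 on day 3 and 2188, 1507 and 2102 on day 5 and rose by 2.51 ± 0.45 (adjusted p = 0.00486). Day 3 replicate 1 was the highest array of its day for all 8 of these genes, as it was for 24 of the 29 members of the list.

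The genes of the most abundant fibrous collagens gave smaller differences. Col1a1 had 13672, 8392 and 5165 on day 3 and 11922, 14399 and 14405 on day 5, and day 3 replicate 1 lay within the range of day 5. The fitted differences were 1.41 ± 0.35 for Col1a1, 0.99 ± 0.25 for Col1a2 and 1.15 ± 0.31 for Col3a1 (0.72 for Col3a1 without day 3 replicate 2). All 3 were called after quantile normalisation (adjusted p from 0.0271 to 0.0348) and none on the values as deposited, with the arrays centred on their medians, or without day 3 replicate 2, day 3 replicate 3 or any single array of day 5. Tnn lost its call without day 3 replicate 3 or day 5 replicate 3 (adjusted p = 0.0725 and 0.0538). Of the other genes of the preceding paragraph, each kept its call whichever array was left out, and the number of called members ran from 11 without day 3 replicate 3 to 26 without day 3 replicate 1. Outside the list, Thbs3 had 147, 4.44 and 28.3 on day 3 and 472, 403 and 654 on day 5 and rose by 3.30 ± 0.54 (adjusted p = 0.00288). Mfap4, a microfibril protein, had 8.99, 2.81 and 3.42 on day 3 and 152, 207 and 136 on day 5 and rose by 3.09 ± 0.34 (adjusted p = 0.000175). Mfap4 was barely above zero signal on every array of day 3, whereas Thbs3 was dim on day 3 replicates 2 and 3 and intermediate on replicate 1.

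Enzymes that modify, fold, trim and crosslink collagen were called higher for 20 of 26 measured genes and lower for 0 (median 1.10). Prolyl hydroxylation, which stabilises the triple helix, was represented by P4ha2, with signals of 453, 123 and 228 on day 3 and 742, 566 and 898 on day 5 and a rise of 1.45 ± 0.32. The prolyl 3-hydroxylation complex gave Crtap with 945, 535 and 452 on day 3 and 2436, 1604 and 1983 on day 5, which rose by 1.65 ± 0.26 (adjusted p = 0.00231), and P3h1, which rose by 1.73 ± 0.37. Crtap was high on all 3 arrays of day 5 and highest among the day 3 arrays on replicate 1. Plod2, a lysyl hydroxylase, rose by 1.39 ± 0.27, Pcolce, which enhances removal of the procollagen tail, by 1.71 ± 0.34, and Serpinh1, the collagen chaperone, by 1.45 ± 0.28 on 1 of its 2 probe sets. P3h2 rose by 1.67 ± 0.38, P3h4 by 1.40 ± 0.26, P4ha3 by 1.08 ± 0.29 and P4ha1 by 0.88 ± 0.22. Among the 10 genes named here, Crtap kept its call whichever array was left out. The other 9 lost theirs in at least 1 of the fits without day 3 replicate 2, day 3 replicate 3, day 5 replicate 1 or day 5 replicate 3 (adjusted p from 0.0502 to 0.134). The number of called members ran from 6 without day 5 replicate 1 to 22 without day 3 replicate 1.

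General chaperones of the endoplasmic reticulum moved less, and 6 of 29 measured genes of the stress and secretory list were called higher (median 0.27). The main chaperones Hspa5, Hsp90b1 and Calr were not called (0.20 ± 0.21, 0.10 ± 0.13 and 0.33 ± 0.20). Creb3l1, a membrane-bound transcription factor that drives collagen secretion in bone, had 419, 187 and 224 on day 3 and 1209, 635 and 992 on day 5 and rose by 1.64 ± 0.35 (adjusted p = 0.0133). Its relative Creb3l2, which acts in cartilage, had 265, 73.6 and 104 on day 3 and 448, 397 and 435 on day 5 and rose by 1.57 ± 0.32 (adjusted p = 0.0103). Sec24d, a coat protein of vesicles that carry procollagen, rose by 1.04 ± 0.22, Kdelr3, a retention receptor, by 1.05 ± 0.20 and Pdia3, a general folding enzyme, by 0.82 ± 0.18. Tram2, which acts in collagen synthesis, was not called (0.93 ± 0.29, adjusted p = 0.0693). Without day 5 replicate 1 all 5 of these calls were lost (adjusted p from 0.0578 to 0.105) and the list had 0 called members, against 11 without day 3 replicate 1. Without day 3 replicate 3 the calls of Creb3l1, Creb3l2, Sec24d and Pdia3 were lost (adjusted p from 0.0632 to 0.0835), and without day 5 replicate 3 those of Creb3l1, Sec24d and Pdia3 (adjusted p from 0.0576 to 0.0657).

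Bone-forming genes were called higher for 3 of 18 measured osteoblast genes (16.7%, where 4.93% of all genes were) and lower for 0 (median 0.86). Alpl, the phosphatase that permits mineralisation, had signals of 898, 507 and 308 on day 3 and 2350.2, 1214 and 2031 on day 5, lowest on day 3 replicate 3 (1.73 ± 0.44, adjusted p = 0.0279). Col22a1 rose by 1.72 ± 0.50, and the third called gene was Pth1r, described above. Sp7, the transcription factor of committed osteoblasts, had 301, 274 and 108 on day 3 and 585, 380.0 and 459 on day 5 and did not pass the test (1.00 ± 0.37, adjusted p = 0.112), although the days do not overlap. Ibsp, Dlx5 and Phex gave values in the same direction without being called (0.89 ± 0.38, 1.06 ± 0.34 and 1.19 ± 0.38). The 3 calls were lost without day 3 replicate 3, day 5 replicate 1 or day 5 replicate 3 (adjusted p from 0.0976 to 0.232), that of Alpl without day 3 replicate 2 (adjusted p = 0.0588), and that of Col22a1 without day 5 replicate 2 (adjusted p = 0.0542). The difference of Col22a1 was 0.96 without day 3 replicate 3. The list had 0 called members without that array and 7 without day 3 replicate 1.

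Osteoclast genes were called higher for 7 of 17 measured members and lower for 0 (median 0.84). Ocstamp, which osteoclast precursors need in order to fuse, had 23.0, 23.2 and 21.2 on day 3 and 236, 136 and 148 on day 5. The 3 arrays of day 3 were nearly equal and all of day 5 was several times brighter (2.37 ± 0.31, adjusted p = 0.000737). Dcstamp, its partner in fusion, had 54.0, 56.7 and 24.7 on day 3 and 189.9, 131 and 183 on day 5 and rose by 1.69 ± 0.37 (adjusted p = 0.0135). Among the enzymes of resorption, Ctsk, the collagen-degrading cathepsin, had 2688, 2673 and 1389 on day 3 and 5831, 4989.6 and 5479 on day 5 and rose by 1.58 ± 0.32 (adjusted p = 0.0101). Acp5, the acid phosphatase used to stain osteoclasts, rose by 1.61 ± 0.36, and Mmp9, a gelatinase, had 1424, 1094 and 493 on day 3 and 3644, 3042 and 3426 on day 5 and rose by 1.96 ± 0.37 (adjusted p = 0.00678). Day 3 replicate 3 was the lowest array for Ctsk, Acp5, Mmp9 and Dcstamp. Atp6v0d2, a subunit of the proton pump, rose by 1.36 ± 0.39 (adjusted p = 0.0458), while Itgb3 and Src did not pass (1.08 ± 0.41 and 1.06 ± 0.36). Ocstamp and Mmp9 kept their calls whichever array was left out. Acp5, Ctsk, Dcstamp and Atp6v0d2 lost theirs without day 3 replicate 3 or day 5 replicate 1 (adjusted p from 0.0667 to 0.187), and all but Ctsk without day 5 replicate 3 (adjusted p from 0.0553 to 0.122). Atp6v0d2 was lost in the other 3 fits too (adjusted p from 0.0502 to 0.0801). The number of called members ran from 2 without day 3 replicate 3 to 8 without day 3 replicate 1.

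Matrix proteases and their inhibitors were called higher for 9 of 27 measured genes and lower for 1 (median 1.03). Mmp14, the membrane-bound collagenase, had 1307, 854 and 586 on day 3 and 4001, 2742 and 3579.9 on day 5 and rose by 2.04 ± 0.33 (adjusted p = 0.00288). Mmp2, which Mmp14 activates, had 2414, 451 and 528 on day 3 and 3547, 3235 and 3626 on day 5, with day 3 replicate 1 far above the other arrays of its day, and rose by 2.11 ± 0.42 (adjusted p = 0.00911). Adamts12 rose by 1.52 ± 0.24, Plat, the tissue plasminogen activator, by 1.48 ± 0.28, Htra1 by 1.46 ± 0.31 and Adam12 by 1.29 ± 0.34. Mmp3, stromelysin, was the member that fell, with 111, 84.7 and 108 on day 3 and 20.7, 47.0 and 31.7 on day 5 and a difference of -1.02 ± 0.28 (adjusted p = 0.0392). Mmp12, a macrophage elastase, had 11.5, 119.6 and 183 on day 3 and 547, 342 and 194 on day 5, and was not called (1.82 ± 0.54, adjusted p = 0.0513). Mmp14, Adamts12 and Plat kept their calls whichever array was left out. The other named calls were lost without day 3 replicate 3 or day 5 replicate 1 (adjusted p from 0.0537 to 0.18), those of Htra1, Adam12 and Mmp3 without day 5 replicate 3 (adjusted p from 0.0601 to 0.117), and that of Adam12 without day 3 replicate 2 or day 5 replicate 2 (adjusted p = 0.0735 and 0.0543). The number of members called higher ran from 4 without day 5 replicate 1 to 15 without day 3 replicate 1.

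**Figure D2:**
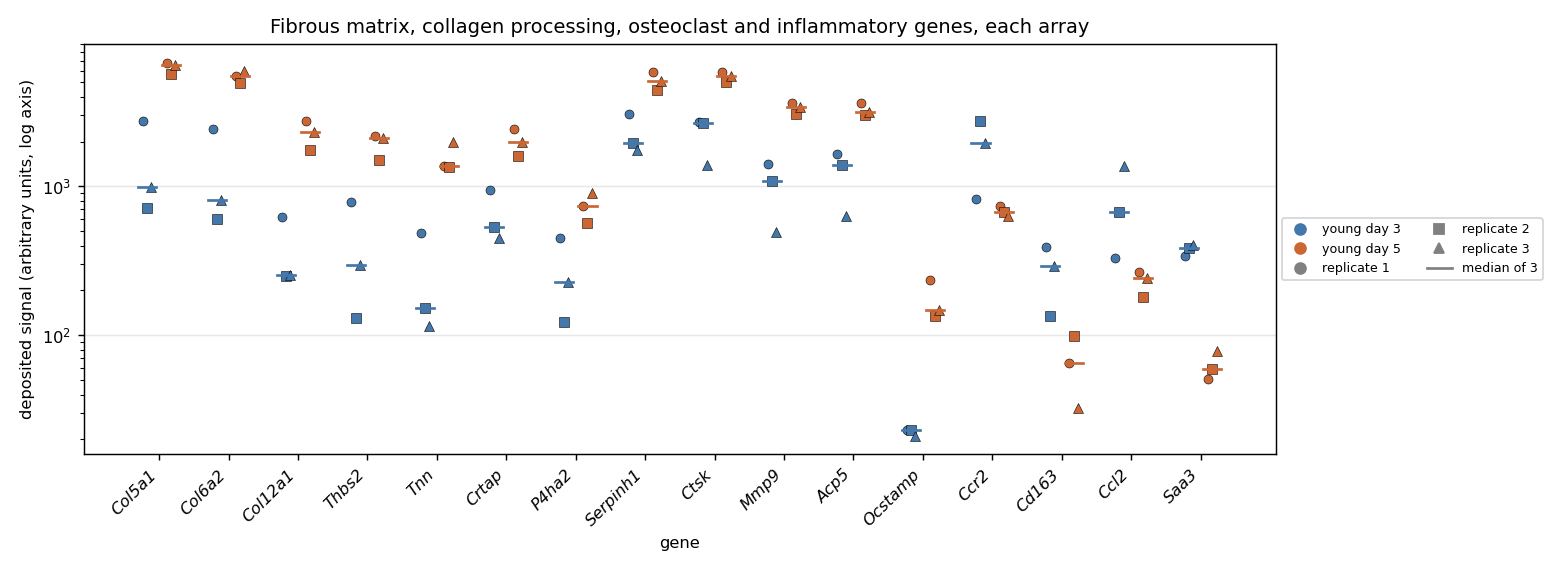
Deposited signals (log axis, arbitrary units) of fibrous matrix, collagen processing, osteoclast and inflammatory genes on each young array, day 3 in blue and day 5 in orange, with a bar at the median of 3 arrays. Day 5 lies above day 3 for the 12 genes from Col5a1 to Ocstamp and below it for Ccr2, Cd163, Ccl2 and Saa3, and day 3 replicate 1 (circle) is the day 3 array nearest to day 5 for most matrix genes.

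Growth factors of the TGF-beta family gave calls among ligands, receptors and targets. Of the ligands and their binding proteins, 4 of 14 were called higher (median 0.48). Tgfb3 had signals of 477, 116 and 225 on day 3 and 1044, 849 and 779 on day 5 and rose by 1.74 ± 0.36 (adjusted p = 0.0108), and Tgfb2 had 187, 136 and 84.7 on day 3 and 458, 355 and 394 on day 5 and rose by 1.43 ± 0.27 (adjusted p = 0.00613) on 1 of its 4 probe sets. The days do not overlap for either ligand. Ltbp2 and Ltbp1, which hold latent TGF-beta in the matrix, rose by 1.38 ± 0.31 and 0.96 ± 0.26. The bone morphogenetic proteins Bmp2, Bmp4 and Bmp7 were not called (0.38 ± 0.53, 0.13 ± 0.22 and -0.74 ± 0.45). Of the receptors, 3 of 11 were called higher (median 0.32). Acvr1, a type I receptor of bone morphogenetic proteins, had 270.3, 122 and 125 on day 3 and 519.8, 388 and 428 on day 5 and rose by 1.27 ± 0.24 (adjusted p = 0.00613), Tgfbr2 rose by 0.82 ± 0.21, and Eng, a co-receptor that endothelium also makes, by 1.08 ± 0.29. Of antagonists and targets, 3 of 15 were called higher (median 0.44), namely the follistatin relatives Fstl1 (1.11 ± 0.24) and Fstl3 (1.38 ± 0.31) and the target Tgfbi (0.77 ± 0.18). Tgfb2 and Acvr1 kept their calls whichever array was left out. The other 8 genes lost theirs without day 5 replicate 1 (adjusted p from 0.0639 to 0.159), 7 of them without day 3 replicate 3 (adjusted p from 0.0507 to 0.172), 6 without day 5 replicate 3 (adjusted p from 0.063 to 0.161), 4 without day 3 replicate 2 (adjusted p from 0.0567 to 0.126) and 2 without day 5 replicate 2 (adjusted p from 0.0589 to 0.0857). The loss for Fstl1 is that of its brightest probe set. Another of its probe sets rose by 1.23 ± 0.24 and kept its call whichever array was left out. The number called ran from 1 (without day 3 replicate 3) to 5 (without day 3 replicate 1) of the ligands. Among the receptors it ran from 1 (without day 3 replicate 2) to 4 (without day 3 replicate 1). Among antagonists and targets it ran from 0 (without day 5 replicate 1) to 4 (without day 3 replicate 2).

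In the Wnt pathway the calls lay on receptors and secreted modulators. Of ligands and receptors, 3 of 22 were called higher (13.6%, where 4.93% of all genes were), with a median of 0.59. Ptk7, a co-receptor of planar cell polarity, had 6.60, 6.81 and 6.27 on day 3 and 84.2, 70.7 and 97.3 on day 5, and rose by 2.28 ± 0.39 (adjusted p = 0.00415). Its 3 signals of day 3 were nearly equal and far below those of day 5. Fzd2, a Frizzled receptor, had 118, 71.9 and 141 on day 3 and 346, 344 and 291 on day 5 and rose by 1.40 ± 0.27 (adjusted p = 0.00714) on 2 of its 3 probe sets. Ror2, a receptor of Wnt5a, was called just below the threshold (1.07 ± 0.31, adjusted p = 0.05 as rounded, and 0.0632 on the values as deposited), and Wnt5a itself was not called (0.83 ± 0.35). Of antagonists and targets, 2 of 19 were called higher (10.5%, median 0.45). Dkk3 had 136, 80.2 and 75.4 on day 3 and 579.5, 396 and 500.4 on day 5 and rose by 2.14 ± 0.37 (adjusted p = 0.00406), and Frzb, an antagonist made by immature cartilage, had 116, 46.3 and 56.9 on day 3 and 497, 253 and 316 on day 5 and rose by 2.12 ± 0.36 (adjusted p = 0.00406). Ptk7, Fzd2, Dkk3 and Frzb kept their calls whichever array was left out, and Ror2 lost its call in every such fit but that without day 3 replicate 1 (adjusted p from 0.0692 to 0.203). The number of ligands and receptors called ran from 2 without day 3 replicate 2 to 12 without day 3 replicate 1, and their median from 0.39 to 0.92. The number of antagonists and targets called was 2 or 3. Sfrp1, another antagonist, was not called on its brightest probe set (0.73). Another of its probe sets rose by 2.07 ± 0.36 and kept its call whichever array was left out.

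Hedgehog and parathyroid hormone-related genes were called higher for 4 of 14 measured members (median 0.51). Gli2, a transcription factor of the pathway, had 48.7, 12.4 and 41.6 on day 3 and 98.1, 95.6 and 105 on day 5 and rose by 1.43 ± 0.35 (adjusted p = 0.0246). Ptch1, at once the receptor and a target of hedgehog signals, had 239, 196 and 110.3 on day 3 and 529.6, 271 and 499 on day 5 and rose by 1.09 ± 0.29 (adjusted p = 0.0369), and Smo, the signal transducer, rose by 0.76 ± 0.21. Gli1, another target, was not called (0.66 ± 0.42, adjusted p = 0.371), and the fourth called gene was Pth1r. Without day 3 replicate 3, day 5 replicate 1 or day 5 replicate 3 all 4 calls were lost (adjusted p from 0.0743 to 0.2), and that of Gli2 also without day 3 replicate 2 or day 5 replicate 2 (adjusted p = 0.0898 and 0.0553).

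Genes of the fibroblast and insulin-like growth factor pathways were called higher for 4 of 21 measured members (median 0.57). Igf2, a fetal growth factor that returns in regenerating tissue, had 332, 39.6 and 379.6 on day 3 and 1250.0, 2584 and 913 on day 5 and rose by 2.91 ± 0.59 (adjusted p = 0.00995). It was low on day 3 replicate 2 and highest on day 5 replicate 2, and the days do not overlap. Igf2r, which clears its product, rose by 1.18 ± 0.32, and the binding proteins Igfbp3 and Igfbp7 rose by 1.15 ± 0.25 and 1.04 ± 0.20, each of these 3 on 1 of 2 probe sets. Fgfr3, the receptor that slows growth of cartilage, had 132, 105 and 77.2 on day 3 and 249.6, 261 and 317 on day 5 and did not pass on its brightest probe set (1.23 ± 0.40, adjusted p = 0.0745). Igf2 kept its call whichever array was left out, but its difference was 1.91 without day 3 replicate 2 and 1.83 with the Actb ratio as a covariate. The number of called members ran from 1 without day 3 replicate 3 to 11 without day 3 replicate 1. Igf2r, Igfbp3 and Igfbp7 lost theirs without day 3 replicate 3 or day 5 replicate 1 (adjusted p from 0.0519 to 0.161), and Igf2r also without day 3 replicate 2, day 5 replicate 2 or day 5 replicate 3 (adjusted p from 0.0774 to 0.138).

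Vessel genes were called higher for 7 of 26 endothelial members (median 0.74) and for 6 of 13 pericyte and smooth muscle members (median 1.00), with 0 lower in either list. Plvap, a protein of fenestrated endothelium, had 453, 141 and 210.1 on day 3 and 1048, 563 and 695 on day 5 and rose by 1.47 ± 0.33 (adjusted p = 0.0162). Flt4, the receptor of lymphatic and growing vessels, rose by 1.56 ± 0.43, the receptor Tie1 by 1.36 ± 0.38, Robo4 by 0.97 ± 0.23, and Pecam1, a junction protein of all endothelium, by 0.96 ± 0.27. Cdh5 and Kdr did not pass (0.93 ± 0.27 and 0.64 ± 0.36, adjusted p = 0.0502 and 0.3). Acta2, smooth muscle actin, which myofibroblasts also make, had 2449, 1887 and 1728 on day 3 and 5502, 4454 and 6392 on day 5 and rose by 1.67 ± 0.25 (adjusted p = 0.00211). Tagln had 457, 579.7 and 371 on day 3 and 1513, 1020.5 and 1415 on day 5 and rose by 1.40 ± 0.23 (adjusted p = 0.00326), and neither gene overlapped between the days. Cspg4, the pericyte proteoglycan NG2, rose by 2.04 ± 0.47, Cnn1 by 1.65 ± 0.33, Myl9 by 1.13 ± 0.30 and Pdgfrb by 1.00 ± 0.27, while Myh11, of mature smooth muscle, was not called (0.07 ± 0.48). Acta2 and Tagln kept their calls whichever array was left out. Every endothelial call named here was lost without day 3 replicate 2, day 3 replicate 3, day 5 replicate 1 or day 5 replicate 3 (adjusted p from 0.0529 to 0.21), those of Pecam1, Flt4 and Tie1 without day 5 replicate 2 as well (adjusted p from 0.0555 to 0.0695), and the endothelial count was 0 without day 3 replicate 3 and 13 without day 3 replicate 1. The difference of Flt4 was 0.96 without day 3 replicate 3, and the pericyte and smooth muscle count was 2 without that array and 10 without day 3 replicate 1. The calls of Cspg4, Cnn1, Myl9 and Pdgfrb were lost without day 3 replicate 3, day 5 replicate 1 or day 5 replicate 3 (adjusted p from 0.0553 to 0.186), and that of Pdgfrb without day 3 replicate 2 (adjusted p = 0.0985).

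Among angiogenic factors and inhibitors, 7 of 24 were called higher (median 0.27), and several of them restrain vessels. Serpinf1, an inhibitor of vessel growth made by mesenchymal cells, had 2484, 1817 and 1229 on day 3 and 5264, 4051 and 5454 on day 5 and rose by 1.66 ± 0.24 (adjusted p = 0.0017). Thbs1, another inhibitor, had 303, 249 and 178 on day 3 and 1080.3, 662 and 907 on day 5 and rose by 1.68 ± 0.36 (adjusted p = 0.0134), and Thbs2 was described above. Tnmd, a tendon protein related to chondromodulin, rose by 2.03 ± 0.57, Pdgfb, which recruits pericytes, by 1.37 ± 0.31, the co-receptor Nrp2 by 1.33 ± 0.28 and the guidance factor Slit2 by 1.04 ± 0.30. Vegfa, the chief angiogenic factor, had 209.9, 171 and 171 on day 3 and 193, 179.6 and 212 on day 5 and differed by -0.02 ± 0.16 (adjusted p = 0.963), with overlapping days. Hypoxia and glycolysis genes were called higher for 1 of 27 members (3.7%, below the 4.93% of all genes), with a median of 0.19. The called gene was Pfkl, a glycolytic enzyme (0.88 ± 0.23, adjusted p = 0.0342). Serpinf1 kept its call whichever array was left out. Thbs1, Tnmd, Pdgfb, Nrp2 and Slit2 lost theirs without day 3 replicate 3, day 5 replicate 1 or day 5 replicate 3 (adjusted p from 0.0536 to 0.229), Pdgfb and Tnmd without day 3 replicate 2 (adjusted p = 0.057 and 0.145), and Slit2 and Tnmd without day 5 replicate 2 (adjusted p = 0.084 and 0.0973). Without day 3 replicate 1 the hypoxia and glycolysis list had 6 called members, and its median ran from 0.03 to 0.29 when 1 array was left out. The angiogenic count ran from 2 without day 3 replicate 3 to 8 without day 3 replicate 1. Pfkl lost its call without day 3 replicate 2, day 3 replicate 3, day 5 replicate 1 or day 5 replicate 3 (adjusted p from 0.0669 to 0.146).

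Few progenitor and proliferation genes were called. Of 22 skeletal progenitor and limb mesenchyme genes, 2 were called higher (9.09%, where 4.93% of all genes were), with a median of 0.27. They were Twist1 (1.08 ± 0.29) and Sox4 (0.93 ± 0.22), the latter on 1 of its 5 probe sets. Prrx1 and Pdgfra, which mark limb mesenchyme, were not called (0.24 ± 0.28 and 0.22 ± 0.22). Of 29 cell cycle genes 0 were called in either direction (median 0.25). Mki67, which dividing cells make, had 1454, 2099 and 1148 on day 3 and 1409.8, 1642 and 2525 on day 5 and differed by 0.27 ± 0.34 (adjusted p = 0.675), with day 3 replicates 1 and 2 inside the range of day 5. Replicate 2 was the highest of day 3 for 26 of the 29 cell cycle genes. Immediate early genes were called higher for 3 of 22 members (median 0.46), Nr4a3 by 1.21 ± 0.24, Egr3 by 1.16 ± 0.28 and Myc by 1.00 ± 0.21, while Fos and Egr1 were not called (0.25 ± 0.31 and 0.55 ± 0.42). Each of the 5 calls was lost without day 5 replicate 1 (adjusted p from 0.0565 to 0.178), 4 of them without day 5 replicate 3 (adjusted p from 0.0553 to 0.117), Twist1, Sox4 and Egr3 without day 3 replicate 3 (adjusted p from 0.0813 to 0.177), and Twist1 and Egr3 without day 3 replicate 2 (adjusted p = 0.0519 and 0.0573). The progenitor list had 0 called members without day 3 replicate 3 and 4 without day 3 replicate 1. The immediate early list had 0 without day 5 replicate 1. Ccn1 of that list was not called on its brightest probe set (0.91). Another of its probe sets rose by 1.51 ± 0.29 and kept its call whichever array was left out.

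The inflammatory list had members called lower and none called higher. Of 24 inflammatory cytokines and chemokines, 3 were called lower (2.21% of all genes were) and 0 higher, with a median of -0.54. Saa3, an acute-phase protein made locally, had 340.3, 384 and 406 on day 3 and 50.9, 59.5 and 78.2 on day 5, with the 3 arrays of each day close together and no overlap. It fell by 2.21 (adjusted p = 0.00396). Ccl2, which attracts monocytes, had 333, 671 and 1371 on day 3 and 267, 181 and 244 on day 5 and fell by 1.58 (adjusted p = 0.0391). Ccl6 had 1743, 2802 and 5714 on day 3 and 1032, 1035 and 968 on day 5 and fell by 1.51 (adjusted p = 0.025) on both of its probe sets. Day 3 replicate 3 was the highest array of day 3 for Saa3, Ccl2 and Ccl6, as it was for 18 of the 24 genes of the list. Il1b and Il6 did not pass (-0.48 ± 0.51 and -0.36 ± 0.51). Ptgs2, the inducible prostaglandin synthase, went the other way without passing, with 139, 163 and 175 on day 3 and 406, 617 and 846 on day 5 and a difference of 1.67 ± 0.52 (adjusted p = 0.0648).

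Macrophage and monocyte genes were called lower for 2 of 23 members and higher for 0 (median -0.17, and 0.18 with the arrays centred on their medians, so the direction of the list depends on scaling). Ccr2, the receptor of inflammatory monocytes, had 827, 2748 and 1958 on day 3 and 734, 670.1 and 634 on day 5 and differed by -1.28 ± 0.32 (adjusted p = 0.0244) on 1 of its 4 probe sets. Cd163, a scavenger receptor of resident macrophages, had 393, 135 and 290.1 on day 3 and 64.7, 99.1 and 32.6 on day 5 and fell by 1.70 (adjusted p = 0.0109). The days do not overlap for either gene. General macrophage genes did not pass, among them Adgre1 (-0.22 ± 0.20), Cd68 (0.02 ± 0.24) and Csf1r (0.43 ± 0.18). Arg1, of wound macrophages, was not called either (-0.90 ± 0.48, adjusted p = 0.271). Of 18 interferon response genes, 1 was called lower (5.56%, where 2.21% of all genes were). The median was -0.27, and 0.11 with centred arrays. The called gene, Ifi27l2a, had 1349.8, 1939 and 3358 on day 3 and 704, 423 and 738 on day 5. It fell by 1.76 (adjusted p = 0.0231). Saa3, of the preceding paragraph, kept its call whichever array was left out. Ccl2, Ccl6, Ccr2, Cd163 and Ifi27l2a lost theirs without day 3 replicate 3, day 5 replicate 1 or day 5 replicate 3 (adjusted p from 0.0509 to 0.21), all but Cd163 without day 5 replicate 2 (adjusted p from 0.0546 to 0.106), and Ccr2 and Ccl2 without day 3 replicate 2 (adjusted p = 0.0877 and 0.0781). Without day 3 replicate 1 the number called lower rose to 5 of the macrophage list and 7 of the inflammatory list.

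Several blood and immune lists had 0 called members in either direction. Leaving out 1 array gave 1 called neutrophil gene (without day 3 replicate 2), 1 T and NK cell gene (without day 5 replicate 2) and 1 platelet gene (without day 3 replicate 1). For the 17 neutrophil genes the median was 0.24, and day 3 replicate 2 was the highest array of day 3 for all 17. Camp, a granule protein, had 3831, 25497 and 7129.6 on day 3 and 6288, 7729 and 8562 on day 5 (0.34 ± 0.50, adjusted p = 0.722). The 18 B cell and plasma cell genes had a median of 0.23 and day 3 replicate 2 was highest for 15 of them, and the 10 megakaryocyte and platelet genes had a median of 0.25 and it was highest for all 10. Erythroid genes had a median of 0.69 over 17 members, with day 3 replicate 3 the lowest of its group for all 17. Alas2, the first enzyme of heme synthesis in red cells, had 1257, 1245 and 366 on day 3 and 1526, 1671 and 1909 on day 5 (1.01 ± 0.53, adjusted p = 0.259). MHC class II genes had a median of 0.34 over 9 members, T and NK cell genes 0.17 over 9 (-0.16 on the values as deposited), and mast cell genes -0.02 over 7. Cd74, the invariant chain of class II, had 769.8, 1255 and 983 on day 3 and 2061, 1572 and 1450.5 on day 5, without overlap, and was not called (0.78 ± 0.25, adjusted p = 0.0745).

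Skeletal muscle, the tissue around the bone, differed more between arrays of a day than between days. Of 31 mature muscle genes 0 were called (median 0.65), and the median ran from -0.94 without day 3 replicate 2 (2 called lower) to 1.71 without day 3 replicate 1 (6 called higher). Ckm, the muscle creatine kinase, had 14866, 456 and 13472 on day 3 and 7149, 12433 and 2109 on day 5, and day 3 replicate 2 was the lowest of its group for all 31 genes. Embryonic and neonatal myosins, which regenerating fibres make, were the 2 called genes among 19 of muscle regeneration (median 0.66). Myh3 had 178, 5.57 and 224 on day 3 and 601, 2985 and 687 on day 5 and rose by 3.40 ± 0.79 (adjusted p = 0.0189). Myh8 had 50.9, 16.6 and 45.5 on day 3 and 189, 2095 and 388 on day 5 and rose by 3.52 ± 0.65 (adjusted p = 0.00573). Both were highest on day 5 replicate 2 and lowest on day 3 replicate 2, the arrays with the highest mature muscle score of day 5 (0.52) and the lowest of day 3 (-4.46). The score is the mean log2 deviation of a list's genes from their averages over 18 arrays. Myh8 kept its call whichever array was left out, and Myh3 lost its call without day 3 replicate 2 (a difference of 2.24, adjusted p = 0.0563) or day 5 replicate 2 (adjusted p = 0.0738). With the muscle score as a covariate 2650 probe sets were called and the calls of the 2 myosins were kept. Pax7 and Myod1, of muscle stem cells and myoblasts, were not called (0.04 ± 0.36 and -0.52 ± 0.53).

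Fat, nerve, skin and tendon lists were small, so 1 call makes a large share beside the 4.93% of all genes called higher. Of 13 adipocyte genes 2 were called lower (median -0.64), Fabp4, which macrophages also make, with 5855, 4463 and 11307 on day 3 and 2689.6, 2971 and 2486 on day 5 and a fall of 1.04 (adjusted p = 0.0168), and Retn, which fell by 1.55 (adjusted p = 0.0466). Adipoq, the defining adipokine, was not called (-0.64 ± 0.63). The list had 6 genes called lower without day 3 replicate 2 and 0 without day 3 replicate 3. Of 7 nerve and Schwann cell genes 1 was called higher (median 0.33), Ncmap (1.49 ± 0.41), while the Schwann cell factor Sox10 was not (-0.13 ± 0.38). Of 3 skin genes 1 was called higher (median 0.05), Sbsn (1.00 ± 0.29), whereas the keratins Krt5 and Krt10 were not called (-1.06 ± 0.32 and 0.05 ± 0.24). Of 9 tendon genes 3 were called higher (median 0.82), namely Tnmd, Comp and Fmod, while Scx, the tendon transcription factor, was not (0.04 ± 0.34). The tendon count ran from 0 without day 3 replicate 3 to 5 without day 3 replicate 1, and the median from 0.12 to 1.55. The differences of Tnmd and Fmod were 1.22 and 1.04 without day 3 replicate 2. All 3 called tendon genes were highest among the day 3 arrays on replicate 1 and lowest on replicate 2. Fabp4, Retn and Ncmap lost their calls without day 3 replicate 3, day 5 replicate 1 or day 5 replicate 3 (adjusted p from 0.0706 to 0.199), Sbsn without any array but day 3 replicate 1 and day 5 replicate 1 (adjusted p from 0.116 to 0.187), Retn without day 3 replicate 1 (a difference of -0.98, adjusted p = 0.0954), and Retn and Ncmap without day 5 replicate 2 (adjusted p = 0.11 and 0.0707).

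**Figure D3:**
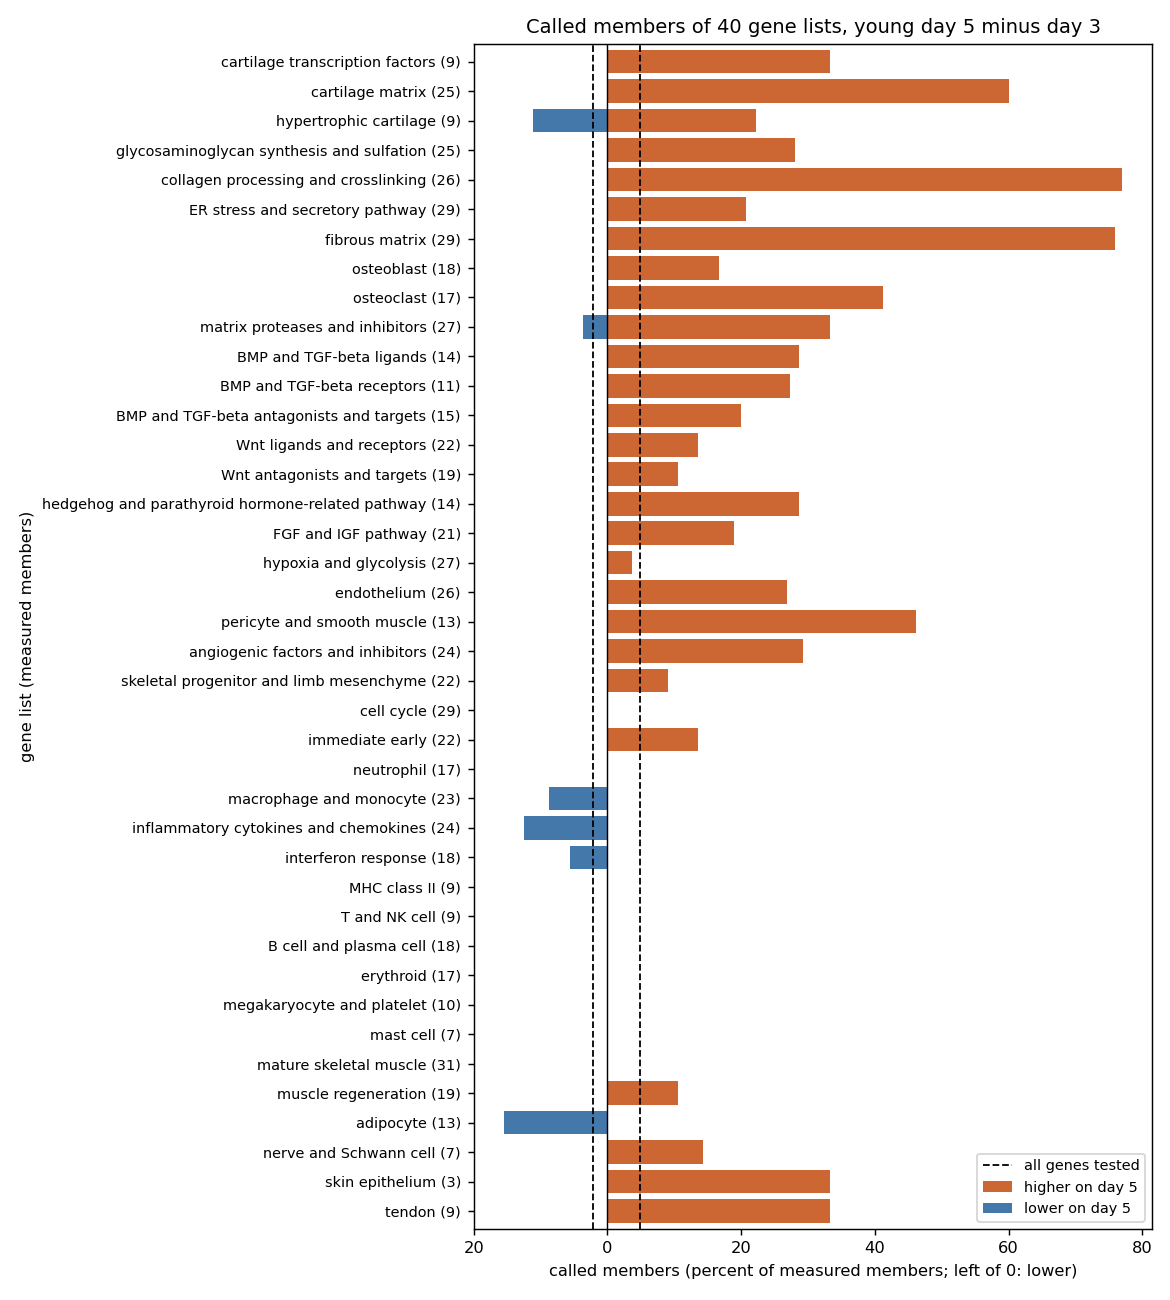
Percent of the measured members of each of 40 gene lists called higher (orange, right of 0) or lower (blue, left of 0) on day 5, with the number measured in brackets and dashed lines at the share of all genes, 4.93% higher and 2.21% lower. Collagen processing, fibrous matrix and cartilage matrix have the longest bars, and the cell cycle, neutrophil, lymphocyte, erythroid, platelet, mast cell and mature muscle lists have none.

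**Figure D4:**
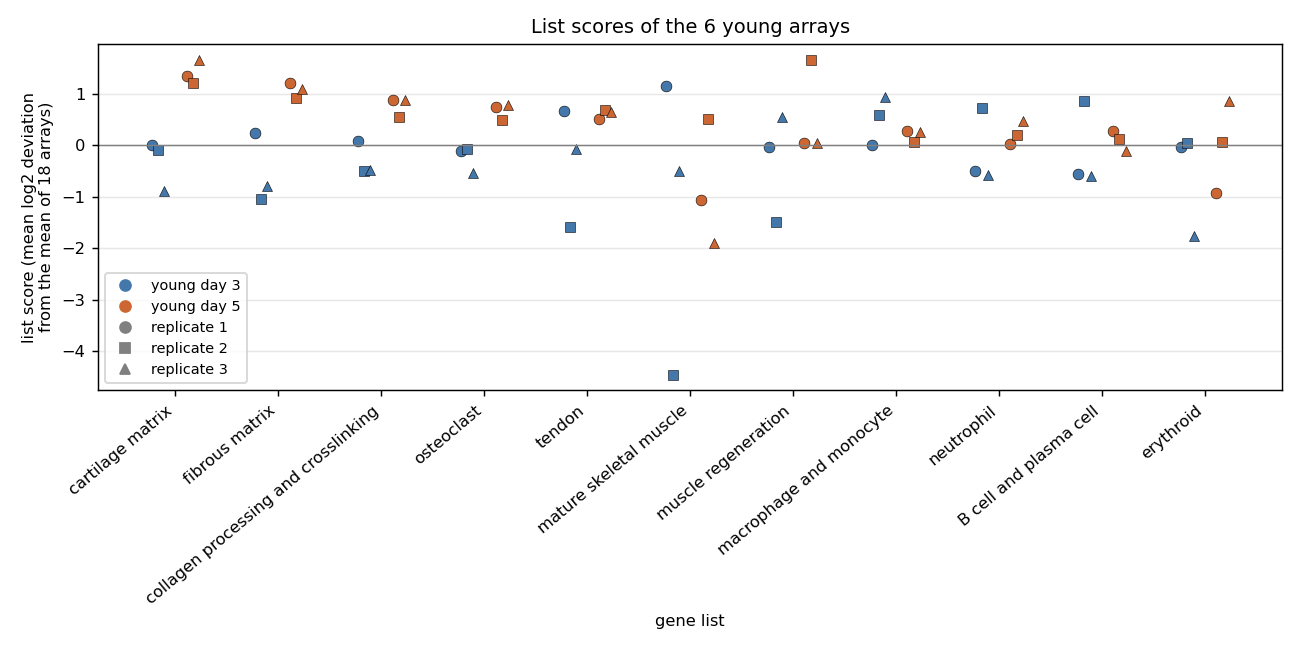
List scores (mean log2 deviation from the average of 18 arrays) of 11 gene lists on the 6 young arrays, day 3 in blue and day 5 in orange, with the symbol giving the replicate. All 3 arrays of day 5 lie above day 3 for cartilage matrix, fibrous matrix, collagen processing and osteoclast genes, whereas day 3 replicate 2 (square) stands apart at -4.46 for mature skeletal muscle.

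The genes with the largest falls mostly lay outside the lists. Of the 15 genes with the largest falls, Saa3, Wfdc17 and Ifi27l2a belong to inflammation or the interferon response. Wfdc17, a protein of activated macrophages, had 1362, 4155 and 4965 on day 3 and 752, 783 and 753 on day 5 and fell by 1.90 (adjusted p = 0.00818). Ntmt1, a methyltransferase, had 646, 1212 and 1377 on day 3 and 83.3, 139 and 229 on day 5 and fell by 2.70 (adjusted p = 0.0101), on 1 of its 2 probe sets. Bzw2 had 541, 1857 and 1235 on day 3 and 110.1, 191 and 305 on day 5 and fell by 2.42 on 1 of 3 probe sets, and Mtm1, a lipid phosphatase, had 1326, 3275 and 2740.2 on day 3 and 343, 516 and 650.2 on day 5 and fell by 2.20 on 2 of 3. All 3 were lowest of day 3 on replicate 1, the array of day 3 with the lowest Actb ratio, and highest on replicates 2 and 3, where that ratio was 2.52 and 2.37. The same order held for Vmn1r58, a pheromone receptor, and for Mup10, a urinary protein of the liver, which fell by 2.58 and 1.96 from 56.6, 185 and 289.7 and 62.1, 107 and 113 on day 3. With the Actb ratio as a covariate the fitted differences were -1.11 for Ntmt1, -0.89 for Bzw2, -0.94 for Mtm1, -1.43 for Vmn1r58, -1.28 for Mup10 and -1.29 for Wfdc17, and none of the 6 was called (adjusted p from 0.354 to 0.584). Some rises were smaller in that fit too, at 0.825 for Mmp2, 1.18 for Col6a3 and 1.32 for Thbs2. Those of Col9a1 and Hapln1 were larger, at 4.57 and 3.68. Bzw2, Mtm1 and Mup10 kept their calls whichever array was left out, while Ntmt1, Vmn1r58 and Wfdc17 lost theirs without day 3 replicate 3 (adjusted p from 0.052 to 0.0626) and Ntmt1 without day 5 replicate 1 (adjusted p = 0.0731).

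Set against day 1, the lists gave the following counts. The comparisons share arrays, so their values are given side by side without a test between them. Cartilage matrix had 4 of 25 genes called higher from day 1 to day 3 (9.16% of all genes were) and 15 from day 1 to day 5 (13.5% of all genes), with medians of 0.35 and 2.11. Fibrous matrix had 3 of 29 and then 24, with medians of 0.03 and 1.84, and collagen processing 5 of 26 and then 21, with medians of 0.33 and 1.40. Macrophage and monocyte genes had 16 of 23 called higher by day 3 and 13 by day 5, with medians of 1.35 and 1.27, and 1 and 3 called lower. Inflammatory genes were called lower for 8 of 24 by day 3 (6.86% of all genes were) and 13 by day 5 (9.1% of all genes), and called higher for 4 and 2. Erythroid genes had 16 of 17 called lower by day 3 and 3 by day 5 (medians -2.20 and -1.50).

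In callus of the old mice the same interval gave 108 called genes (0.836%), 88 higher and 20 lower. The difference of the change between ages was called for 0 probe sets (0%) by limma, with 1791 (6.45%) at an unadjusted p below 0.05. Cartilage genes rose in both ages. Col2a1 changed by 4.85 ± 0.62 in young and 5.20 ± 0.62 in old callus, Col9a1 by 3.75 ± 0.43 and 4.57 ± 0.43, and Acan by 3.27 ± 0.46 and 2.81 ± 0.46. Cartilage matrix had 15 called members in young and 13 in old callus, with medians of 1.71 and 1.46. Fibrous matrix had 22 called members in young and 2 in old callus, with medians of 1.5 and 1.13, and collagen processing 20 and 2, with medians of 1.10 and 0.68. These counts do not show that the ages differ, since 0 genes of either list had a called difference. Thbs3 changed by 3.30 ± 0.54 and 1.28 ± 0.54 (difference 2.02 ± 0.76, adjusted p = 0.742), and Ptk7 by 2.28 ± 0.39 and 0.58 ± 0.39 (difference 1.70 ± 0.56, adjusted p = 0.734).

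Some lists had medians of opposite sign in young and old callus without a called difference. Erythroid genes had 0.69 in young and -0.97 in old callus, MHC class II genes 0.34 and -0.69, neutrophil genes 0.24 and -0.36, and platelet genes 0.25 and -1.33. Cd74 changed by 0.78 ± 0.25 and -0.85 ± 0.25 (difference 1.63 ± 0.36, adjusted p = 0.602), and Slc4a1, the anion exchanger of red cells, by 0.80 ± 0.83 and -1.92 ± 0.83 (difference 2.71 ± 1.18, adjusted p = 0.763). Of 12921 genes, 63 had young arrays wholly higher and old arrays wholly lower on day 5, and 17 had the reverse. In young callus alone 15.8% of genes lay wholly higher and 10.4% wholly lower. Whether the 63 and the 17 exceed chance was not tested. Among genes that fell in young callus, the values in young and old were, for Saa3, -2.21 ± 0.38 and -2.08 ± 0.38, for Ccr2 -1.28 ± 0.32 and -1.82 ± 0.32, and for Ccl2 -1.58 ± 0.43 and -1.99 ± 0.43.

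**Figure D5:**
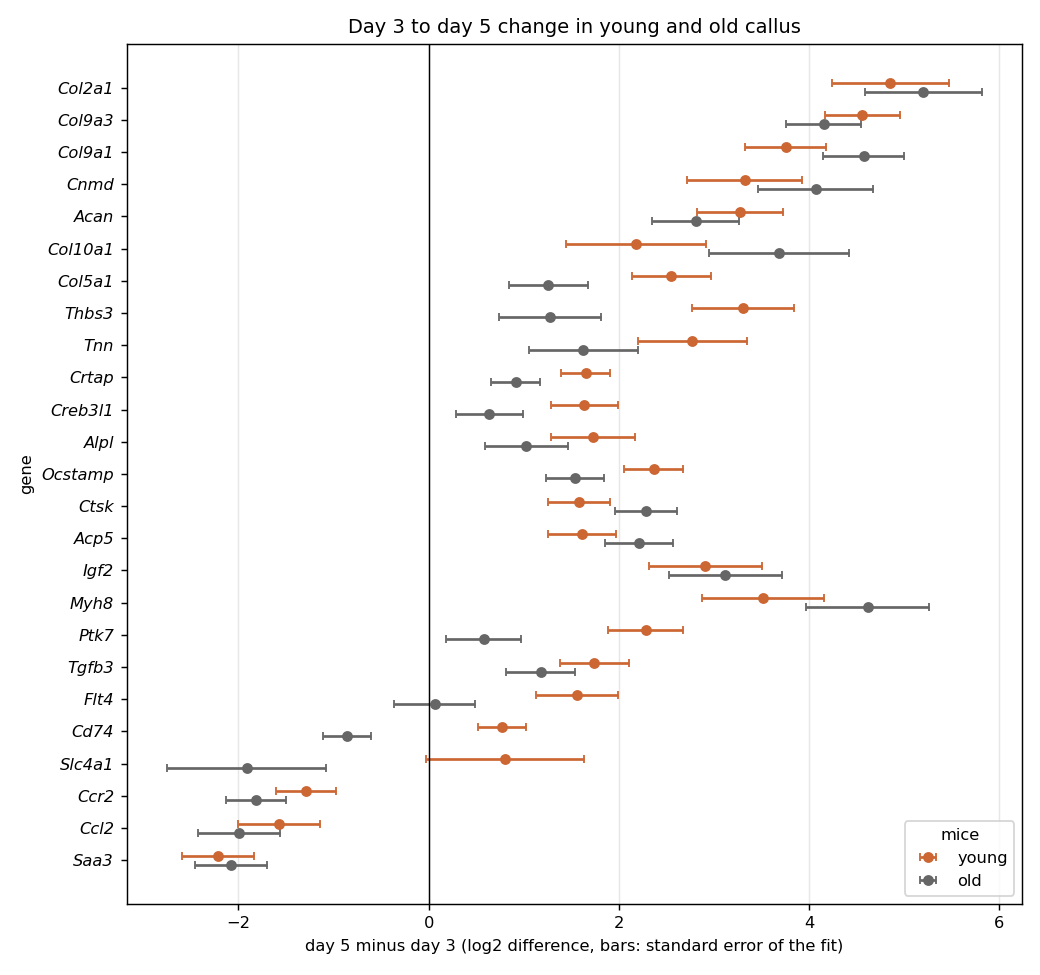
Log2 difference between day 5 and day 3 in young (orange) and old (grey) callus for 25 genes, with bars of 1 standard error of the fit. Cartilage and osteoclast genes lie right of 0 and inflammatory genes left of 0 in both ages, Cd74 and Slc4a1 lie on opposite sides, and no difference between the ages was called.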

How the data were processed

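Callus RNA of 18 arrays (6 groups of 3) was analysed. The deposited values are linear signal intensities, 1 per probe set and array. All arrays share 1 trimmed mean (2% cut at either end), which is a scaling the authors applied before deposit. No label or header names the signal algorithm. Array medians ran from 35.99 to 72.38, and the number of arrays limits the precision. Here 16 was added, log2 taken and arrays quantile normalised. Probe sets above the array median on at least 3 of 18 arrays (27746 of 45101, with 64 control probe sets left out) entered 1 limma fit (limma 3.58.1, R 4.3.3) with a mean per group, an intensity trend and Benjamini-Hochberg adjustment. Symbols came from the 2016 platform annotation, updated through RefSeq. A gene stands for its brightest tested probe set.

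The members and the 40 lists were chosen with earlier results of these data known. Named genes were up to 15 each way with the largest called differences and arrays that do not overlap, up to 8 per list by size of difference, the first 3 of each list, and control genes. Alternatives changed the scaling, added constant, filter, variance model, covariates and arrays. The main fit did not pair arrays by replicate number. On data simulated for this comparison over 27746 probe sets, 0 of 50 changes of 0.5 (log2), 24 of 50 of 1, 40 of 50 of 2 and 48 of 50 of 3 were called in the right direction, with 2 of 27546 unchanged probe sets called. The simulated noise was independent between probe sets, with a spread for each pooled over the 6 groups. The real arrays of young day 3 stood further apart and differed by whole lists of genes, so these counts may not hold for them.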

Additional observations from a re-analysis of the deposited data

How the results depend on the processing

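The count of called probe sets, 1773 as reported, was 3005 on the values as deposited, 4761 with arrays centred on their medians, 12636 with array weights, 16 with only the arrays of the groups compared, 16 with the Actb ratio as a covariate and 11 under a 2-fold threshold. Leaving out 1 array gave from 294 to 5517. With replicate number as a replicate block it was 1657, 1545 of them shared; same-numbered arrays did not deviate together (correlations of -0.024, -0.5 and -0.102), so the numbers do not pair the arrays. The difference between ages, called for 0 probe sets, was called for 4806 with array weights and 1 with only the arrays of the groups compared, and for 0 to 8 when 1 young array was left out. Under the remaining alternatives the main count ran from 1426 to 2650. Over named genes and settings, 6327 values kept their side of the threshold, 353 passed it and 641 no longer did. Some values that were not called changed sign, and no called value did. The cause of these shifts was not tested. Dim genes, with signals near the added 16, have understated fold changes.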

Other observations

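Genes known to be imprinted, expressed from 1 parental copy and often active in fetal growth, were listed after the values had been seen, so no test is given. Of 37 listed genes 23 were measured, 6 were called higher in young callus on day 5 (4.93% of all genes were), 0 were lower, and the median difference was 0.49. Mest had signals of 503, 446 and 803 on day 3 and 2966, 3018 and 2303 on day 5, with no overlap, and kept its call with only the 6 arrays (adjusted p = 0.0481) and with the Actb ratio as a covariate (adjusted p = 0.0104), both from limma. In old callus 5 of the 23 were called higher (0.681% of all genes were) and the median was 0.50.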
